A study of Mus musculus with 2 samples.

Results

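The imprinted Dlk1-Dio3 locus on mouse chromosome 12 carries one of the largest groups of miRNAs in the genome. Its miRNAs were taken from the array by name, as the mature miRNAs whose family number belongs to the locus, without use of any measured value. They numbered 96 of the 1881 mouse miRNAs on the array. LLC cells, a mouse Lewis lung carcinoma cell line, released the exosomes into their culture supernatant, and the RNA of these vesicles was labelled with Cy3 and hybridized to Agilent mouse miRNA microarrays. There was 1 group, LLC-derived exosomes, with 2 arrays from independent experiments, and no treated, untreated or cell RNA group was analysed here, so no difference between groups was tested. LLC cells are a single established line, and the values do not tell which vesicles of the supernatant carried a given miRNA.

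Genes of the locus are expressed from 1 parental copy only. The protein-coding genes Dlk1, Rtl1 and Dio3 are read from the paternal chromosome, whereas the non-coding RNAs Meg3, Rian and Mirg, and the miRNAs among them, are read from the maternal chromosome. The miRNAs fall into groups along the locus. Some lie on the Dlk1 side of Rtl1, and a set antisense to Rtl1 can guide cleavage of its mRNA. A few lie within Rian, and the long miR-379 to miR-410 cluster lies within Mirg. They are known for high levels in the embryo, the placenta and the brain, and for a fall of the whole set where the maternal copy is silenced.

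Of the 96 members, 92 had a mature sequence in the RefSeq table used here (build GRCm38.p6), and 91 of these lay within 158 kb of chromosome 12. The other, miR-496b, shares its number with a miRNA of the locus but maps to chromosome 19, and it was not detected. The sequences below belong to the members that were detected on at least 1 array, then to the opposite arms of their hairpins, and then to the first and last miRNAs for which the large cluster is named and to the best-known miRNA antisense to Rtl1. The seed, bases 2 to 8, is in capitals. Sequences run from 5′ to 3′, and all lie on the plus strand.
miR-539-5p, chr12:109728136-109728157: gGAGAAAUuauccuuggugugu
miR-494-3p, chr12:109715367-109715388: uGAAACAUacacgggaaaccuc
miR-134-5p, chr12:109734145-109734166: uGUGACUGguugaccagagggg
miR-1188-3p, chr12:109611877-109611901: uCCGAGGCuccccaccacacccugc
miR-494-5p, chr12:109715334-109715355: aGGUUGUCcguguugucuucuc
miR-134-3p, chr12:109734184-109734203: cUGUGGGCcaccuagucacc
miR-1188-5p, chr12:109611841-109611861: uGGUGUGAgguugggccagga
miR-379-5p, chr12:109709065-109709085: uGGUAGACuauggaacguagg
miR-410-3p, chr12:109743764-109743784: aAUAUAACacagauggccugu
miR-127-3p, chr12:109592888-109592909: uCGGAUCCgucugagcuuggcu
No 2 of the 4 detected members had the same seed, and none of the 4 seeds occurred in another miRNA of the array with a sequence.

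Each miRNA was measured by 30 spots on an array. The 96 members took up 2880 spots and 246 probes, with 1 to 4 probes for a miRNA. Signal is the background-subtracted fluorescence of a spot in intensity units, averaged over the spots of a probe and then over the probes of a miRNA, and spots that the software marked as outliers were left out (57 member spots in replicate 1 and 64 in replicate 2). It can fall below 0. A probe counted as detected in Feature Extraction where its total signal was more than 3 times the error of that total, and a miRNA where this held for at least 1 of its probes. For undetected member probes with enough signal, the mean spot signal needed for a call was calculated with their own errors as measured. It was 8.999 to 9.33 in replicate 1 and 9.18 to 9.45 in replicate 2. The error grew with signal, so the limit itself lies higher. The dimmest detected member probe measured 11.3 in replicate 1 and 9.71 in replicate 2, the latter 3.01 times its error. A miRNA that was not detected is therefore one below the limit of a call and not one shown to be absent. Negative control spots had a median signal of 0.619 in replicate 1 and 0.739 in replicate 2, and the brightest of them reached 9.45 and 9.35.

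Few miRNAs of the locus were detected in LLC-derived exosomes. Both arrays detected 2 of the 96 members, miR-494-3p and miR-539-5p, which was 2.08% of the members beside 11.5% of all miRNAs on the array (216 of 1881). Replicate 1 detected 3 members, which was 3.12% beside 13.5% of all miRNAs, and replicate 2 detected 3 members beside 11.9% of all miRNAs. Taking the arrays together, 4 members were detected on at least 1 array (4.17% of the members, beside 13.8% of all miRNAs), with miR-134-5p added by replicate 1 and miR-1188-3p by replicate 2. At the level of probes, replicate 1 detected 9 of the 246 member probes and replicate 2 detected 6. The count followed the strictness of the call. Where a probe with 50% or more of its spots positive and significant sufficed on each array, 11 members passed, which was 11.5% of the members beside 25.4% of all miRNAs. These were the 4 detected members together with miR-136-5p, miR-376b-5p, miR-382-5p, miR-409-3p, miR-485-3p, miR-667-3p and miR-668-3p. When the spots had to be well above background, 0 members passed beside 7.07% of all miRNAs, and when every probe had to be detected, miR-539-5p alone passed beside 7.5% of all miRNAs. These shares are descriptions of 1 group, and no test of their difference was made.

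**Figure D1:**
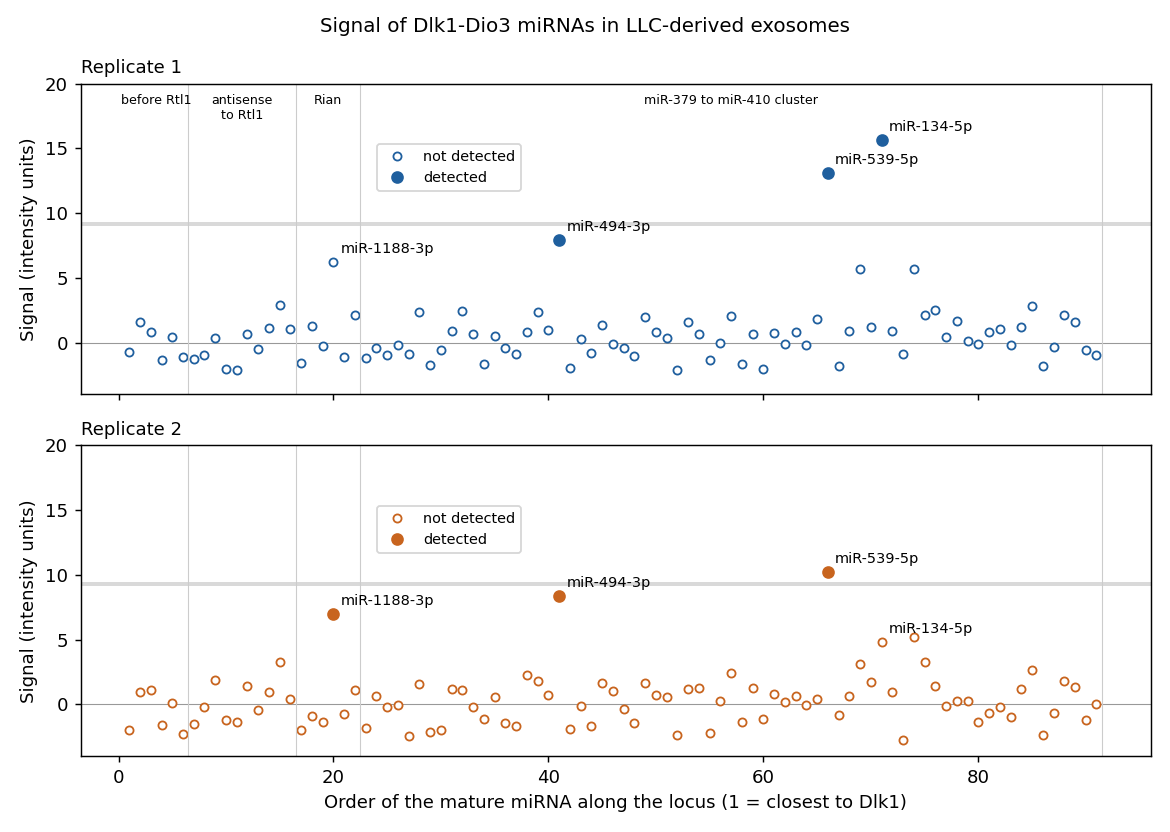
Mean signal (intensity units, y axis) of the 91 members with a chromosome 12 position, in their order along the locus (x axis, 1 lies closest to Dlk1), for each array. Filled points were detected and open points were not. The grey band is the mean spot signal that an undetected member probe would have needed for a call, calculated with its own error. As the error grew with signal, the limit itself lies higher. A mean over probes can lie under the band where only 1 probe passed, as for miR-494-3p. Most points sit near 0, and miR-539-5p is the only member above the band on both arrays.

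miR-539-5p, a miRNA of the miR-379 to miR-410 cluster, passed more of the detection calls on both arrays than any other member. Its signal was 13.1 in replicate 1 and 10.3 in replicate 2. All 4 of its probes were detected on both arrays, with probe means between 11.9 and 14.4 on the array of replicate 1, and between 9.77 and 10.9 on that of replicate 2. The probes thus gave similar values within an array, and every spot was positive and significant against the background, 26 of 26 and 28 of 28. Only 7 of these spots in replicate 1 and 1 in replicate 2 were well above background, the stricter call of the software. On the log2 scale relative to the 75th percentile of each array (50.2 intensity units in replicate 1 and 40.0 in replicate 2, over the probes detected on both arrays), its level was -1.96 and -2.01, with a mean of -1.99 ± 0.04 (SD, n = 2).

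miR-494-3p, a member of the same cluster that has been widely studied in tumours, was detected on both arrays through a single probe. The miRNA had a signal of 7.89 in replicate 1 and 8.39 in replicate 2. Its first probe measured 11.3 and 12.1, which was 3.53 and 3.69 times the error, whereas the second measured 4.44 and 4.63 (1.46 and 1.49 times the error) and was not detected on either array. The probes disagreed in the same way on both arrays. The level of miR-494-3p was -3.01 and -2.98, with a mean of -2.99 ± 0.02 (SD, n = 2).

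Both miRNAs were dim among the detected miRNAs. The median level of the 216 miRNAs detected on both arrays was -1.46, and 68.1% of the 216 gave a higher level than miR-539-5p (rank 148). For miR-494-3p, 90.3% gave a higher level (rank 196). These ranks order signals, since probes bind with different strength, and not amounts of RNA.

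miR-134-5p, known from neurons as a brake on the growth of dendritic spines through the kinase Limk1, differed most between the arrays among the members detected on at least 1 of them. Its signal was 15.6 in replicate 1, the brightest of any member on either array, and 4.83 in replicate 2. All 4 probes shared the difference, whose means were 13.8, 15.9, 15.7 and 17.02 in replicate 1, against 4.28, 4.41, 7.24 and 3.40 in replicate 2. For every probe the lowest spot in replicate 1 lay above the highest spot in replicate 2, for example 9.18 above 6.70 for the first probe and 12.3 above 11.02 for the third. In replicate 1, 17 of 29 spots were well above background, and in replicate 2 0 of 30.

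The ratio of replicate 1 to replicate 2 was 3.23 for miR-134-5p, which ranked 9 among the 260 miRNAs detected on at least 1 array, where the median ratio was 1.1. For miR-539-5p the ratio was 1.28 and for miR-494-3p it was 0.941. The level of miR-134-5p was -1.70 and -3.76, and with 1 array for each experiment the source of this gap was not tested. In replicate 1 alone, miR-134-5p ranked 141 of 253 detected miRNAs by signal.

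miR-1188-3p, whose hairpin lies in Rian, was at the edge of detection. It had signals of 6.21 and 6.99, and its second probe measured 7.69 in replicate 1 and 9.71 in replicate 2. These were 2.48 and 3.01 times the error, so the call in replicate 2 passed the limit of 3 narrowly while the values of the arrays were close. The first probe was undetected on both arrays, at 4.73 and 4.27. The total that Feature Extraction gave for this miRNA in replicate 2 was 260.8, which was 127 times the sum of its own detected probe, so these totals were not used for levels.

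**Figure D2:**
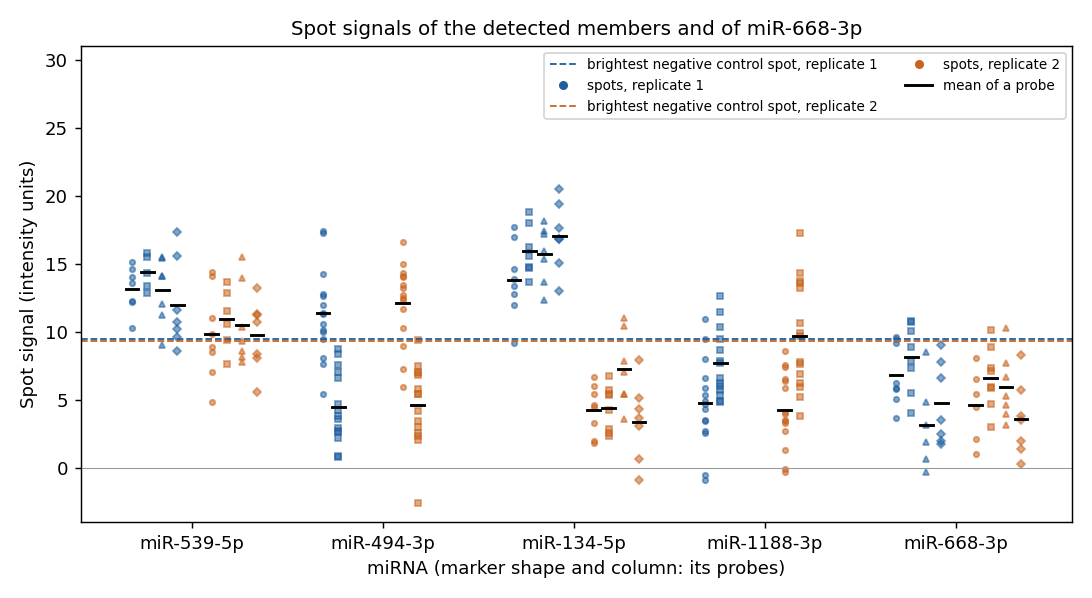
Signal of each spot (intensity units, y axis) for the 4 members detected on at least 1 array and for miR-668-3p, the brightest member that was not detected. Each column of points is 1 probe on 1 array, black bars are probe means and dashed lines are the brightest negative control spots (9.45 in replicate 1 and 9.35 in replicate 2). Nearly all spots of miR-134-5p lie above these lines in replicate 1 and below them in replicate 2, and the probes of miR-494-3p separate on both arrays.

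A miRNA hairpin yields a 5p and a 3p arm, of which one often dominates. The members came from 49 hairpins, 47 of them with both arms on the array. In 4 hairpins 1 arm was detected on at least 1 array, and in 0 of them both arms. The partner of miR-539-5p, miR-539-3p, measured 2.42 in replicate 1 and 1.91 in replicate 2. Signals of the partner of miR-494-3p, miR-494-5p, were 0.978 and 0.712, and those of miR-134-3p were 0.926 and 0.952. The least bright partner was miR-1188-5p, with -0.254 and -1.38. All 4 partners were thus under the limit of a call on both arrays. Both arrays detected 1 of 47 members of the 5p arm and 1 of 48 of the 3p arm, too few to tell whether either side was favoured. In replicates 1 and 2, the median signal was -0.0826 and -0.171 for the 5p arms and 0.592 and 0.343 for the 3p arms.

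By position along the locus, the members detected on at least 1 array lay in the Rian group and the miR-379 to miR-410 cluster. By the rule these hold 6 and 74 of the 96 members, and the other groups only 6 and 10. With so few detected members, no pattern of position can be read. Outside the rule, miR-3544-3p, which overlaps miR-337-5p at the end closest to Dlk1, was detected on both arrays. The 6 miRNAs on the Dlk1 side of Rtl1 (both arms of miR-337, miR-540 and miR-665) were not detected. They measured between -1.35 and 1.58 in replicate 1 and between -2.31 and 1.13 in replicate 2. Of the 10 arms antisense to Rtl1, from miR-431, miR-433, miR-127, miR-434 and miR-136, none was detected either. miR-127-3p, the best known of them, had signals of 0.667 and 1.40, close to the negative controls. The brightest of the 10 was miR-136-5p, with 2.92 and 3.24, above the control median but far under the limit of a call.

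Among the 6 arms in the Rian group, miR-1188-3p was the only one detected, in replicate 2 alone, and miR-370-3p, which has been studied as a regulator of lipid metabolism in the liver, had signals of 2.11 and 1.12. The miR-379 to miR-410 cluster held 74 members by the rule, of which 2 were detected on both arrays (2.70%) and 3 on at least 1. The 74 include the undetected miR-496b, which maps to chromosome 19. miR-379-5p, at the start of the cluster, measured -1.17 and -1.84. miR-410-3p, at its end, measured -0.966 and 0.0377. Both ends of the cluster were thus below the medians of the negative control spots, 0.619 in replicate 1 and 0.739 in replicate 2. The detected miR-494-3p, miR-539-5p and miR-134-5p lay between these ends. Members of the miR-376 family, known for A-to-I editing of their precursors in the brain, were also undetected. Their 3p arms measured -1.998 and -1.13 for miR-376a-3p, -1.61 and -1.33 for miR-376b-3p, and -0.708 and -1.14 for miR-376c-3p. The 5p arms gave higher values, with 0.669 and 1.27 for miR-376a-5p, 2.06 and 2.46 for miR-376b-5p, and 0.661 and 1.30 for miR-376c-5p, and miR-376b-5p was among those with 50% or more of the spots of a probe positive and significant.

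The 26 members best known from work on the locus, listed for this purpose with earlier results of these data known, included 1 detected on both arrays and 2 on at least 1. Signals of the other 24 lay between -2.02 and 5.71 in replicate 1 and between -2.13 and 3.24 in replicate 2, with medians of 0.497 and 0.287. Among them, miR-382-5p was the brightest in replicate 1, at 5.71, and measured 3.11 in replicate 2. miR-409-3p had signals of 2.79 and 2.63, miR-154-5p of 2.53 and 1.40, and miR-329-3p of 2.39 and 1.83. At the low end were miR-433-3p, with -2.02 and -1.21, and miR-299a-3p, with -1.75 and -2.13. All 24 were under the limit of a call on both arrays.

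As a group, the 92 members detected on neither array had lower median signals than the negative control spots. Signals of the 92 had a median of 0.312 in replicate 1, with a range from -2.10 to 5.71. In replicate 2 the median was 0.115, with a range from -2.76 to 5.18. The control spots had medians of 0.619 and 0.739. Signals at or below 0 were found for 43 of the 92 in replicate 1 and 44 in replicate 2. The 1529 other undetected miRNAs of the array had medians of 0.116 and -0.09. In replicate 1, 18.1% of the spots of these 92 members were positive and significant, compared with 17.5% of the negative control spots. In replicate 2 the share was 15.4%, compared with 20.8% of the control spots. The share among the other undetected miRNAs was 21.1% and 18.8%.

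Some undetected members stood above the controls on both arrays, in a smaller share than among the other undetected miRNAs. The means of the 7 kinds of negative control lay between 0.340 and 1.25 in replicate 1 and between 0.368 and 1.90 in replicate 2. On both arrays 7 of the 92 members exceeded the highest control mean (7.61%), beside 256 of the 1529 other undetected miRNAs (16.7%), and the difference of these shares was not tested. The 7 were miR-136-5p, miR-376b-5p, miR-382-5p, miR-409-3p, miR-485-3p, miR-539-3p and miR-668-3p. In replicate 2 miR-539-3p passed only narrowly, with 1.913 beside a highest control mean of 1.903. miR-668-3p was the brightest of the 7 on both arrays, with 5.71 and 5.18. Its best probe reached 2.62 times its error in replicate 1 and 2.11 times in replicate 2. miR-485-3p had signals of 2.13 and 3.30, and miR-376b-5p of 2.06 and 2.46. Across the 92 undetected members, the signals of the arrays correlated with r = 0.864 (Pearson) and rho = 0.855 (Spearman), and across the 1529 other undetected miRNAs with r = 0.918 and rho = 0.897. These correlations are across miRNAs, which are not independent replicates, and the points share probes of the same design and a slide, so the signal of a probe itself and that of RNA cannot be told apart in them.

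**Figure D3:**
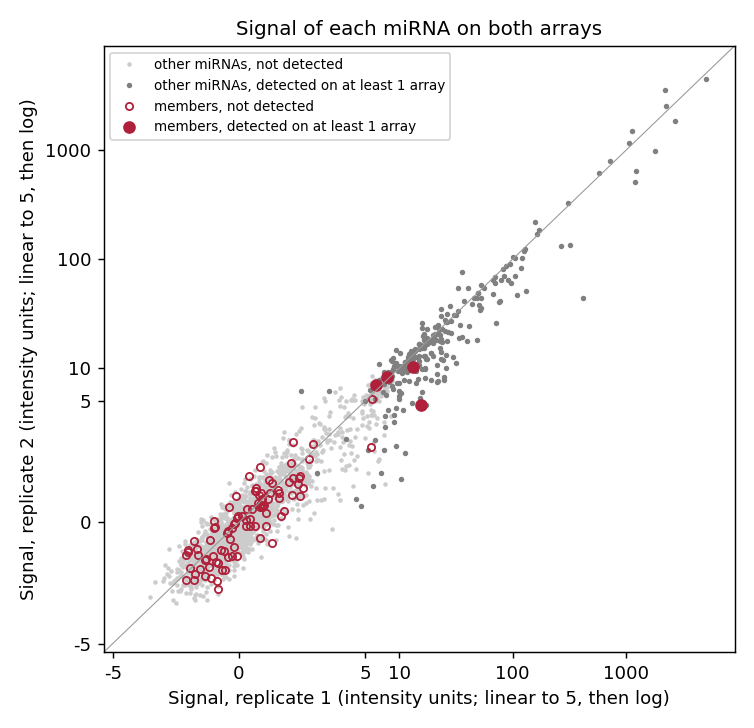
Signal of each miRNA in replicate 1 (x axis) and replicate 2 (y axis), in intensity units on axes that are linear up to 5 and logarithmic beyond, with the line of equal signal. Red points are the 96 members, filled where detected on at least 1 array, and grey points are the other miRNAs. The members lie at the low end of the array, and miR-134-5p, with 15.6 and 4.83, lies below the line.

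The share of detected members was set beside that of other groups of miRNAs on the same arrays. In the miR-297, miR-466, miR-467 and miR-669 families, most of which come from another imprinted rodent cluster in the gene Sfmbt2, 17 of 61 miRNAs were detected on both arrays (27.9%), and the brightest reached 2265 in replicate 1 and 2554 in replicate 2. In the miR-17~92 cluster and its paralogs, known for growth-promoting activity in tumours, 5 of 29 were detected (17.2%), and the brightest reached 30.4 and 31.5. The brightest member of the Dlk1-Dio3 set reached 15.6 in replicate 1 and 10.3 in replicate 2. In a list of 14 further miRNAs of the Dlk1-Dio3 locus outside the rule, the arms of miR-432, miR-493, miR-673, miR-770, miR-3070, miR-3071 and miR-3072, both arrays detected 1 (7.14%).

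**Figure D4:**
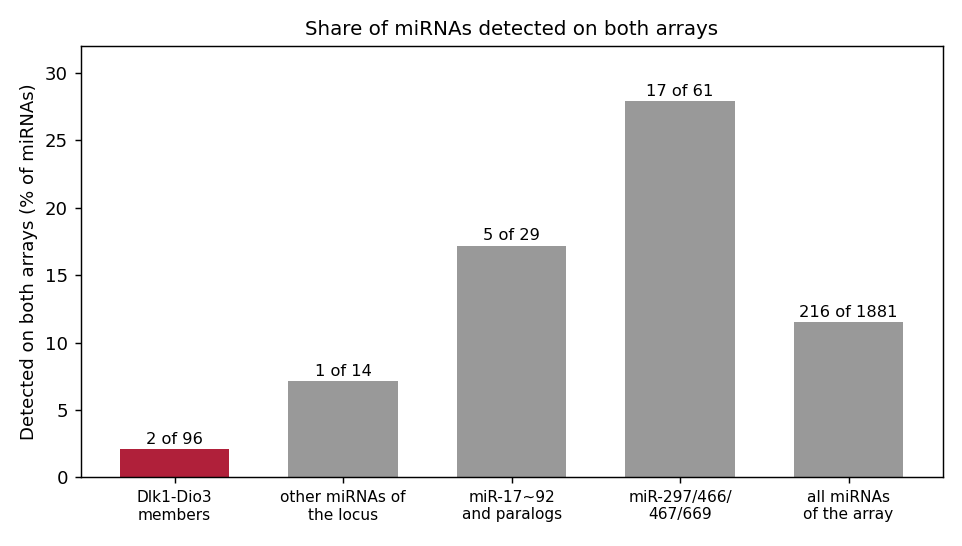
Share of miRNAs detected on both arrays (y axis, % of the miRNAs in each list), with the counts above the bars. The 96 members of the Dlk1-Dio3 locus stand at 2.08%, the lowest of the 5 bars, beside 11.5% for the whole array. The bars describe the same 2 arrays and carry no error. The lists were chosen with earlier results of these data known, and both lists from outside the locus lay above the whole array. Whether a low share is particular to the locus was not tested. Of the 4 epithelial markers 0 were detected on either array, but that list is too short to compare with the locus.

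The miRNA of that list was miR-3072-5p, which lies downstream of the miR-410 hairpin. It measured 22.8 in replicate 1 and 17.9 in replicate 2, above every member by signal on both arrays. Its second probe gave 33.9 and 27.9 and its first 11.7 and 7.86, of which the last was not detected. A further miRNA of the list, miR-3070-2-3p, measured 13.1 in replicate 1 and 4.91 in replicate 2. It was detected in replicate 1 alone, as was miR-134-5p. This was the more common order, since over the whole array 37 miRNAs were detected in replicate 1 alone and 7 in replicate 2 alone. Counting this list and every miRNA of the array that RefSeq places between 150 kb before the first member and 50 kb after the last, 19 lay outside the rule and 3 of them were detected on both arrays, which with the members made 5 of 115. The additional ones, miR-1906 (13.7 and 14.5) and miR-3544-3p (12.7 and 12.1), were named after their values were seen.

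miR-3544-3p lies on the minus strand and overlaps miR-337-5p, a member on the Dlk1 side of Rtl1, by 17 bases. Both sequences are shown because only the minus strand was detected, with the seeds in capitals, and miR-3072-5p is shown as the brightest miRNA of the region.
miR-3544-3p, chr12:109585813-109585834, minus strand: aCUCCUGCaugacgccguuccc
miR-337-5p, chr12:109585818-109585839, plus strand: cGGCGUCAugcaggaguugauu
miR-3072-5p, chr12:109747893-109747914, plus strand: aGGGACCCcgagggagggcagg
The signal of miR-337-5p was -0.686 in replicate 1 and -1.96 in replicate 2, while miR-3544-3p was detected on both arrays. The remaining overlaps of this kind in the region, between miR-136 and miR-3071, between miR-299a-3p and miR-299b-5p, and between miR-337-3p and miR-3544-5p, held no detected miRNA on either strand.

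Among sequence features that the selection did not use, the GC content of mature sequences had a median of 43.2% in the members detected on both arrays, which were only 2, and of 52.3% in the 4 detected on at least 1. In the 88 undetected members with a sequence it was 47.8%. Over the whole array, it was 59.1% in the detected miRNAs and 50% in those detected on neither array, with a sequence for 85.5% of the miRNAs of the array. Median GC of the members was thus below that of the detected miRNAs of the array, and the part of GC in detection was not tested. The members detected on both arrays were each 22 bases long, which was also the median length of the members.

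Sequence likeness between members can let probes of one miRNA bind another. Of the 92 members with a sequence, 4 were within 2 single-base changes, insertions or deletions of another miRNA, miR-376b-5p and miR-376c-5p as one pair and miR-379-3p and miR-411-3p as the other, and none of them was detected. The detected members were 7 to 9 such changes away from the nearest other miRNA with a sequence. A sequence was at hand for 1608 of the 1881 miRNAs of the array, and the others were not compared. The 92 members held 85 different seeds, and 7 seeds were shared by 14 members, none of which was detected. In 11 cases a seed also occurred in a miRNA outside the locus set, and in 1 of these that miRNA was detected. Both are shown with the shared seed in capitals.
miR-377-5p, chr12:109740515-109740536, plus strand: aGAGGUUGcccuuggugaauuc
miR-672-5p, chrX:104116228-104116250, minus strand: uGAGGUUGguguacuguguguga
miR-672-5p measured 94.2 in replicate 1 and 90.7 in replicate 2, whereas miR-377-5p measured -0.08 and -1.39.

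Markers of tissues in which the locus is active, or which could contribute vesicles, were read from the same arrays. Of 20 marker miRNAs, 2 were detected on both arrays (beside 11.5% of all miRNAs), the muscle miRNA miR-206-3p (27.1 and 21.4) and the embryonic stem cell miRNA miR-294-3p (20.97 and 18.1). The other markers of these lists were not detected. Those of muscle were miR-1a-3p, with -1.62 and -0.380, and miR-133a-3p, with 2.55 and 1.99. Those of embryonic stem cells were miR-291a-3p, with 2.70 and 2.97, and miR-295-3p, with 2.15 and 1.01. The neuronal markers miR-124-3p, miR-9-5p and miR-128-3p were undetected, with signals of 1.08 at most in replicate 1 and 1.01 at most in replicate 2. The epithelial markers chosen, miR-200a-3p, miR-200b-3p, miR-200c-3p and miR-141-3p, were also undetected, with signals below 0 on both arrays. Neither miR-451a nor the other red cell markers, miR-144-3p and miR-486a-5p (4.87 and 4.51), were detected. The liver marker miR-122-5p and the leukocyte markers miR-142a-3p, miR-142a-5p and miR-223-3p were undetected too. The brightest undetected marker was miR-223-3p, with 6.92 in replicate 1 and 8.15 in replicate 2.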

How the data were processed

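The authors deposited the output of Agilent Feature Extraction for each array (10.7.1.1 per the file headers, 9.1 in the submitters' processing notes), in which the fluorescence intensity of each spot had its background subtracted and arrays were not normalized to each other. They also deposited a log2 table whose scale and centring are not given in the sources used here. The labels describe RNA preparation with a blood kit and labelling of amplified cRNA, and whether this held for the arrays was not settled. Control and outlier spots were left out. For levels, intensities were scaled to the 75th percentile of each array, computed over the 393 probes that both arrays detected, with a floor at the lowest positive scaled value, and put on a log2 scale. Means were then formed over the spots of a probe and over the probes of a miRNA. The members and lists were chosen with earlier results of these data known. Named miRNAs were the members detected on at least 1 array and their opposite arms, the 26 best-known members, and otherwise those said to be named for their values, for the range of a group or for a shared sequence. Both arrays lay on 1 slide. There was 1 group of 2 arrays, so no p-value was computed, and the number of arrays limits the precision. Alternatives covered the detection call, scaling, background correction (normexp, limma 3.58.1, R 4.3.3), probe summary, the log2 table and each replicate left out. Python 3.11.15, numpy 2.4.6, pandas 2.3.3, matplotlib 3.10.9 and edlib 1.3.9.post1 were used. The computation was tested on simulated data.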

Additional observations from a re-analysis of the deposited data

How the results depend on the processing

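The number of members detected on both arrays, 2, was 11 (of 478 miRNAs) with a probe of which 50% or more spots were positive and significant, 0 (of 133 miRNAs) when these spots had to be well above background, 1 when every probe had to be detected, 4 with detection on at least 1 array, and 4 above the lowest value of the deposited log2 table. Leaving out 1 replicate gave 3 and 3. The median level of the members detected on both arrays, -2.49, was 1.73 with scaling over all probes, -0.62 with normexp, -1.92 with the brightest probe, -1.36 with the sum of detected probes, 1.37 in the deposited table, -2.28 with spots averaged before log2 (chosen after seeing the data) and -2.86 over members detected on at least 1 array, and -2.98 to -1.96 leaving out 1 replicate. The scaling, normexp, detected-probe sum and deposited-table settings change the scale itself, whereas the values over members detected on at least 1 array or without 1 replicate are on the scale of the main value and moved with the members or arrays included. The rank of the brightest member, 148, was 175 by brightest probe and 191 by the totals of Feature Extraction, and 132 to 157 leaving out 1 replicate, where miR-134-5p was the brightest in replicate 1. The median GC content, 43.2%, was 52.3% over members detected on at least 1 array and 45.5% leaving out either replicate. Its alternative with spots well above background gave no value, since it left 0 members. No paired analysis was possible because there was 1 group. With 2 arrays no SD here is precise.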
